A study of Mus musculus with 4 samples.

Results

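The cells described here held transcripts of fibrillar collagens and of decorin, lumican or the receptor gene Pdgfra in mouse tumors, and they were 426 of the 56088 cell barcodes kept from 4 droplet single-cell RNA libraries. They were picked by a rule on measured counts that was meant to find tumor fibroblasts. A kept barcode had at least 300 genes, at least 500 unique molecular identifiers (UMIs, one per captured transcript) and at most 20% mitochondrial UMIs. A member had at least 10 UMIs of Col1a1, Col1a2 and Col3a1 together and at least 2 of Dcn, Lum and Pdgfra together. Of the 426 members, 419 held a Dcn UMI. Each member also had no UMI of the leukocyte gene Ptprc or the endothelial gene Cdh5, at most 5 of C1qa, C1qb and C1qc, and at most 10 of the pigment genes Pmel, Mlana and Dct. These 14 genes chose the cells, so their levels are descriptions and enter no count of changed genes.

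Fibroblasts build the connective tissue of a tumor. They secrete type I collagen, a triple helix of the Col1a1 and Col1a2 chains, type III collagen from Col3a1, and the small proteoglycans decorin (Dcn) and lumican (Lum), which bind collagen fibrils. In tumors they also make matrix proteases, chemokines and growth factors, and they take contractile, inflammatory or resting adventitial states.

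The libraries came from tumors grown from 2 inoculated mouse lines, MC38 (colon carcinoma, taken on day 26 after inoculation) and B16F10 (melanoma, day 14), each grown in Lrrc25-/- and WT mice without treatment. Lrrc25 encodes a leucine-rich repeat receptor of myeloid cells, and it is deleted in the host, not in the tumor line. Each library is 1 pool of tissue from 3 mice, in which CD45+ bead-isolated cells were mixed with unsorted suspension at 5:1. There was therefore 1 pool for each genotype in each tumor model, with no replicate, and the intervals below are exact 95% intervals that cover counting error only. Tumor line, day of harvest and library cannot be told apart within the model comparison. Host cells of the models also differed in Xist, as given below, and host sex cannot be told apart from the model either.

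The members numbered 142 in Lrrc25-/- MC38, 187 in WT MC38, 50 in Lrrc25-/- B16F10 and 47 in WT B16F10. They held 2526889, 3350416, 765071 and 506803 UMIs in that order, with median depths of 17312.5, 17503, 13618.5 and 9685 UMIs per cell. Between 96 and 247 barcodes were shared by any pair of libraries, and no barcode was a member in more than 1 of them. Lrrc25 was at 2.01 CPM (the UMIs of a gene per 1000000 UMIs of a class of cells in a pool) in Lrrc25-/- and 90.5 CPM in WT macrophages of MC38, and at 4.45 CPM in Lrrc25-/- and 141 CPM in WT macrophages of B16F10. In the members Lrrc25 had 0 UMIs in both Lrrc25-/- pools, 4 UMIs (1.19 CPM) in WT MC38 and 1 UMI (1.97 CPM) in WT B16F10, so these cells were near 0 for the deleted gene in WT tumors too.

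The label was checked on Col1a1 itself, since the rule summed 3 collagen genes. In MC38 30 of 142 Lrrc25-/- members and 17 of 187 WT members held at least 10 Col1a1 UMIs, and 100 Lrrc25-/- and 151 WT members held none. In B16F10 48 of 50 Lrrc25-/- members and 43 of 47 WT members held at least 10, and none held 0. The members were therefore split into Col1a1-high (at least 10 UMIs, 138 cells), Col1a1-low (1 to 9 UMIs, 37 cells) and Col1a1-zero cells (251 cells, all from MC38). This split was made after the values were seen, so differences between the subsets are described without a test.

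Col1a1-high cells had the transcripts of fibroblasts in all 4 pools. The 15 fibroblast markers summed to 23617–29603 CPM in the MC38 pools and 24172–24926 CPM in the B16F10 pools, against 24–58 CPM in macrophages of all libraries. This list holds the rule genes Col1a1, Col3a1, Dcn, Lum and Pdgfra. The macrophages were chosen with a Ptprc UMI, at least 10 C1q UMIs and under 10 collagen UMIs. Much of this contrast was therefore set by the choice of cells, and genes outside the rule follow. Besides the collagens, the genes with the highest fold over the remaining cells of the same library were Rarres2 (chemerin, a chemoattractant), Mfap5 (a microfibril protein), Serping1 (the inhibitor of complement C1), Cpxm1, Lox (which cross-links collagen), Postn (periostin) and Dpt (dermatopontin). In the library where the fold was lowest, Rarres2 was 205-fold and Mfap5 159-fold higher. Among lists of other cell types, the macrophage list summed to 82.6–161 CPM in MC38 and 218–223 CPM in B16F10, against 8488–13241 CPM in macrophages. The melanoma list summed to 16.5–41.8 CPM in MC38 and 278–441 CPM in B16F10 Col1a1-high cells, and the adipocyte list was at 0 in all 4 pools. The rule capped C1q and pigment genes that belong to the macrophage and melanoma lists, so the sums of those lists were held down in part by it. The chondro-osteo list, which holds Sox9, summed to 161–408 CPM in MC38 and 54.8–70.4 CPM in B16F10, and the Schwann list to 237–267 CPM in MC38 and 113–118 CPM in B16F10. The rule excluded no gene of the mural list (pericytes and vascular smooth muscle). It summed to 86.7–93.6 CPM in MC38 and 56.1–68.4 CPM in B16F10. In macrophages it summed to 12.2–12.9 CPM in MC38 and 2.18–6.06 CPM in B16F10.

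Col1a1-zero cells went against the fibroblast label in most of what was checked, though several matrix genes were present. Of the 15 fibroblast markers, 3 were at 0 in Lrrc25-/- and 4 in WT. Col1a1 was among these in both genotypes because it defined the subset, and Dpt was at 0 in WT alone. Lum and Mfap5 were at 0 CPM in both genotypes, although Lum was among the genes that could admit a cell. Serping1 was at 1.0 CPM in Lrrc25-/- and 0 CPM in WT Col1a1-zero cells, Acta2 (smooth muscle actin) at 0.5 CPM in Lrrc25-/- and 0 CPM in WT, and Postn at 2.1 CPM in Lrrc25-/- and 4.2 CPM in WT. They passed the rule on low levels of the other genes: Col1a2 was at 352 CPM in Lrrc25-/- and 298 CPM in WT, Col3a1 at 512 CPM in Lrrc25-/- and 528 CPM in WT, and Dcn at 427 CPM in Lrrc25-/- and 309 CPM in WT. Matrix genes outside the rule were present too. Col6a1, a chain of microfibrillar collagen, was at 445 CPM in Lrrc25-/- and 315 CPM in WT, the matrix glycoprotein Sparc at 1638 CPM in Lrrc25-/- and 1250 CPM in WT, and the proteoglycan biglycan (Bgn) at 660.0 CPM in Lrrc25-/- and 496 CPM in WT. In the library where the fold was lowest, these were 5.00-fold, 3.87-fold and 3.96-fold higher than in the remaining cells, a mix that includes macrophages and T cells. The 15 fibroblast markers summed to 1705–2030 CPM, in part by the rule. They summed to 674–739 CPM in the MC38 Sox9 cells outside the rule that are described next, and to 66.3–66.7 CPM in MC38 T cells.

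What these cells shared beyond the rule included Sox9, a transcription factor of cartilage and of many epithelia. Sox9 was at 835 CPM in Lrrc25-/- and 871 CPM in WT Col1a1-zero cells, and 97 of 100 Lrrc25-/- and 147 of 151 WT cells held at least 3 Sox9 UMIs. Tnnt2, a troponin of heart muscle, was at 346 CPM in Lrrc25-/- and 322 CPM in WT, and Crabp2, which carries retinoic acid, at 371 CPM in Lrrc25-/- and 395 CPM in WT. Col1a1-high cells of the same tumors had 80.3 CPM of Sox9 in Lrrc25-/- and 330 CPM in WT, and 6.43 CPM of Tnnt2 in Lrrc25-/- and 27.5 CPM in WT. The median WT cell of these held 0 Sox9 UMIs, while 1 cell held 20 and another 21. Cells outside the rule with at least 3 Sox9 UMIs, no Ptprc UMI and at most 5 C1q UMIs, 909 in Lrrc25-/- MC38 and 1470 in WT MC38, had 444 CPM of Tnnt2 in Lrrc25-/- and 356 CPM in WT, and 276 CPM of Crabp2 in Lrrc25-/- and 224 CPM in WT. Their Sox9 level was set by that choice and is not compared.

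**Figure D1:**
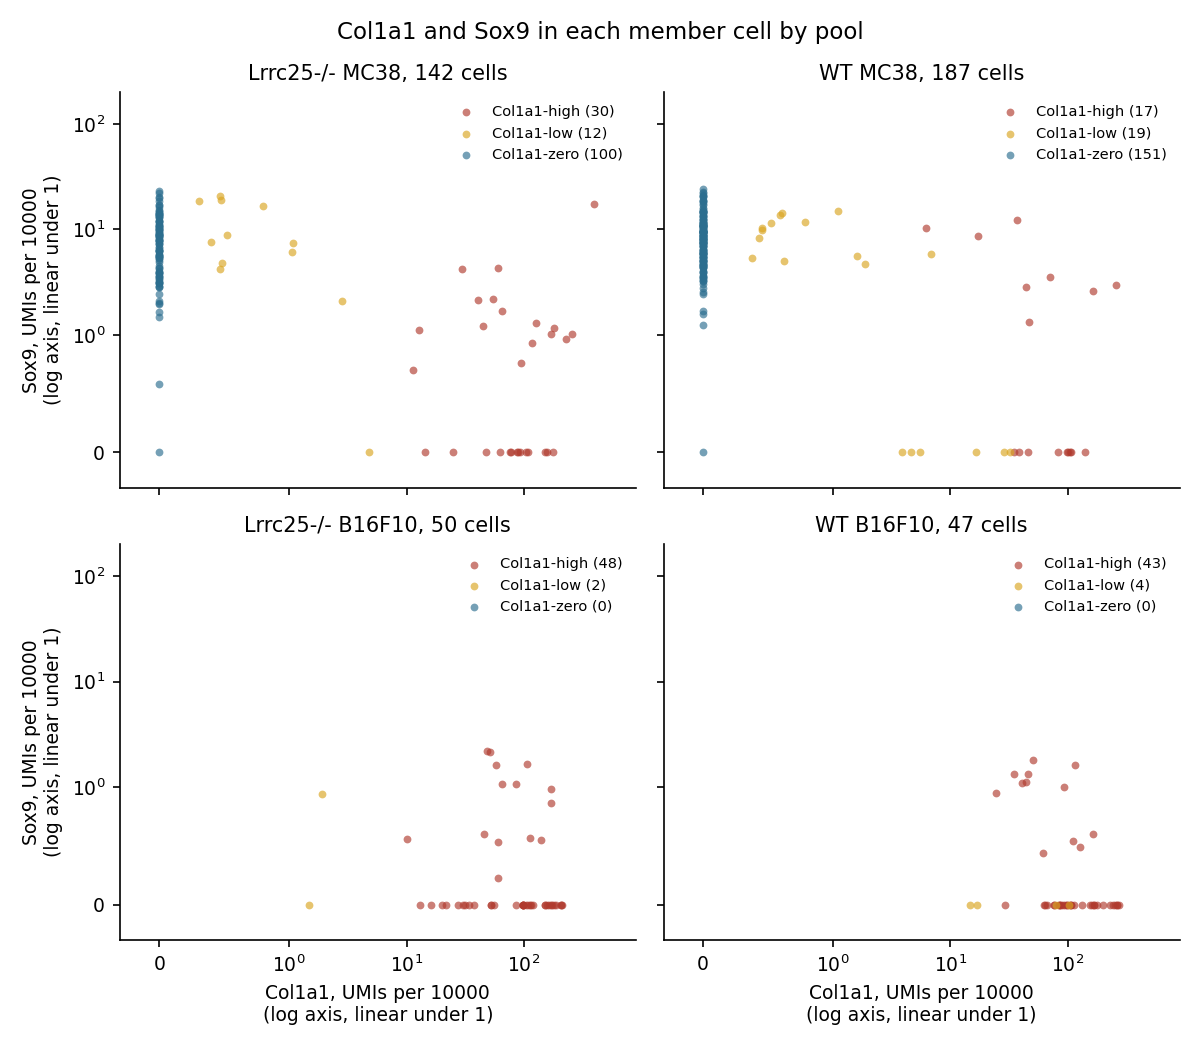
Each point is 1 of the 426 cells, with Col1a1 on the x axis and Sox9 on the y axis, both in UMIs per 10000 UMIs of the cell on axes that are logarithmic above 1 and linear below it; the 4 panels are the pools and the colours the Col1a1 subsets. In MC38, 100 Lrrc25-/- and 151 WT cells stand at 0 for Col1a1 and nearly all of them above 1 for Sox9, while the B16F10 cells stand at high Col1a1 and low Sox9.

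Xist, the RNA of the inactive X chromosome, separated the subsets in MC38, where the hosts' immune cells expressed it. It was found in 28 of 30 Lrrc25-/- and 14 of 17 WT Col1a1-high cells, at 572 CPM in Lrrc25-/- and 435 CPM in WT. It was found in 22 of 100 Lrrc25-/- and 29 of 151 WT Col1a1-zero cells, at 12.9 CPM in Lrrc25-/- and 10.5 CPM in WT, although these cells had higher median depths (17923 UMIs in Lrrc25-/- and 17946 in WT) than the Col1a1-high cells (10534.5 UMIs in Lrrc25-/- and 8778 in WT). With every cell thinned to 2000 UMIs, Xist remained in 46.4% of Lrrc25-/- and 58.8% of WT Col1a1-high cells and in 1.00% of Lrrc25-/- and 3.31% of WT Col1a1-zero cells, against 75.2% of Lrrc25-/- and 74.6% of WT T cells. In B16F10 no member had an Xist UMI, and the Y-linked gene Ddx3y was found in 16 of 50 Lrrc25-/- and 14 of 47 WT members.

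**Figure D2:**
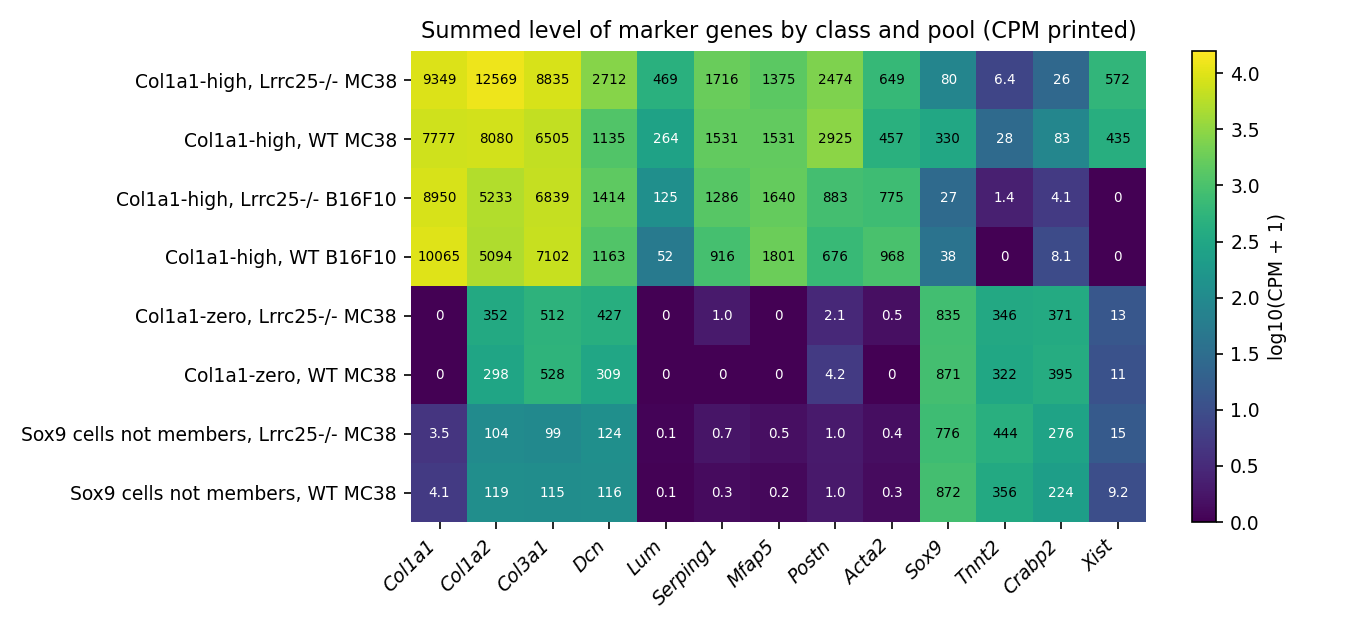
Summed level of 13 genes (columns) in 8 classes of cells and pools (rows), with the colour giving log10(CPM + 1) and the printed number the CPM. Tnnt2 is at 322–444 CPM in the Col1a1-zero rows and in the rows of Sox9 cells that are not members, which were chosen on Sox9. Lum and Mfap5 are at 0 CPM in the Col1a1-zero rows, whereas the 4 Col1a1-high rows have 7777–10065 CPM of Col1a1.

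The edge of the collagen threshold lies within the Sox9 cells. Members with 10 to 12 collagen UMIs numbered 42 in Lrrc25-/- MC38 and 59 in WT MC38, and 39 of the Lrrc25-/- and 55 of the WT cells had no Col1a1 UMI. Just outside, at 7 to 9 collagen UMIs with every other condition met, were 88 Lrrc25-/- and 87 WT cells. Sox9 was at 862 CPM in Lrrc25-/- and 911 CPM in WT inside the edge and at 838 CPM in Lrrc25-/- and 873 CPM in WT outside it. In B16F10 1 cell of each genotype lay just inside and none just outside. For these reasons the results below are given for Col1a1-high and Col1a1-zero cells apart, and the cells are called by those names. Results on Col1a1-zero cells are not read as results on fibroblasts. Whether these cells belong to the inoculated MC38 line was not tested.

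The collagen genes were read at these positions, GRCm38 (mm10) in the GENCODE M21 annotation: Col1a1 on chromosome 11 at 94936224–94953042, Col1a2 on chromosome 6 at 4504814–4541544, Col3a1 on chromosome 1 at 45311538–45349706 and Dcn on chromosome 10 at 97479609–97518143, all on the plus strand. The promoters of Col1a2 and Col3a1 are shown because their transcripts admitted most cells to the rule, the Col1a1-zero cells included. Each line has 250 bases before and 50 after the RefSeq start (GRCm38.p6), 5′ to 3′ on the strand of the gene, with capitals marking CCAAT boxes (CCAAT, or ATTGG on the other strand). Col1a2 lies at chr6:4505368-4505667 (+) and Col3a1 at chr1:45311288-45311587 (+).
Col1a2: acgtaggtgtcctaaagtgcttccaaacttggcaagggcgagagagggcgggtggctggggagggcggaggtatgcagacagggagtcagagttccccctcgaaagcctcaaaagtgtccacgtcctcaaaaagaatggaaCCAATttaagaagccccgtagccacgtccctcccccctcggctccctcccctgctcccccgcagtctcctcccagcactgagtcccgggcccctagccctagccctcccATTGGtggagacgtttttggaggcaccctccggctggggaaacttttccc
Col3a1: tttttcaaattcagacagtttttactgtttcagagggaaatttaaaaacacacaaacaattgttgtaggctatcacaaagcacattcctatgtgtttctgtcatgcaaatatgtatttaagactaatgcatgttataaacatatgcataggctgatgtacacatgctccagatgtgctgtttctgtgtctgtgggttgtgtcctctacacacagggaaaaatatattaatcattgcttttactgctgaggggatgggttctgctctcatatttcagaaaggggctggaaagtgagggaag
The Col1a2 window held 2 CCAAT matches, from −109 to −105 and, on the opposite strand, from 1 to 5 counted from the start. The Col3a1 window held 0. Over 32851 mouse promoters of this length, 37.4% held a CCAAT on either strand, as did 3 of the 5 promoters found for the 7 listed fibrillar collagens, so the motif is common in such windows.

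Of the collagens that chose the cells, Col1a1 was of like level in the 4 Col1a1-high pools. These cells were chosen a further time by at least 10 Col1a1 UMIs, so this likeness was set in part by the choice. Col1a1 was at 9349 CPM in Lrrc25-/- and 7777 CPM in WT cells of MC38, and at 8950 CPM in Lrrc25-/- and 10065 CPM in WT cells of B16F10. Its median per cell was 88.2, 70.8, 98.2 and 99.4 UMIs per 10000 in the same order. Col1a2 was at 12569 CPM in Lrrc25-/- MC38, 8080 CPM in WT MC38, 5233 CPM in Lrrc25-/- B16F10 and 5094 CPM in WT B16F10. Col1a2 was thus higher by value in both MC38 pools. Col3a1 was at 8835 CPM in Lrrc25-/- MC38, 6505 CPM in WT MC38, 6839 CPM in Lrrc25-/- B16F10 and 7102 CPM in WT B16F10. Lum was at 469 CPM in Lrrc25-/- MC38, 264 CPM in WT MC38, 125 CPM in Lrrc25-/- B16F10 and 52.3 CPM in WT B16F10, so both MC38 pools were above both B16F10 pools for this proteoglycan.

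An adventitial and a contractile gene were counted in each Col1a1-high cell. Pi16, a marker of adventitial fibroblasts, was found in 13 of 30 Lrrc25-/- and 6 of 17 WT cells of MC38, and in 22 of 48 Lrrc25-/- and 11 of 43 WT cells of B16F10. Acta2, the actin of myofibroblasts, was found in 12 Lrrc25-/- and 11 WT cells of MC38 and in 23 cells of each genotype of B16F10. Both genes were found together in 3 Lrrc25-/- and 4 WT cells of MC38 and in 6 Lrrc25-/- and 3 WT cells of B16F10, so most Pi16-positive cells held no Acta2 UMI except in WT MC38. Pi16 had a UMI in 0.141% of Lrrc25-/- and 0.122% of WT T cells of MC38 and in 0.944% of Lrrc25-/- and 2.26% of WT T cells of B16F10, at median depths of 4154, 4750.5, 4878 and 7251 UMIs in that order, all below its shares in Col1a1-high cells. Cthrc1, a secreted protein of activated fibroblasts, was found in 22 of 30 Lrrc25-/- and 8 of 17 WT cells of MC38 and in 35 of 48 Lrrc25-/- and 34 of 43 WT cells of B16F10.

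The number of members was compared between genotypes within each tumor model. In MC38 they were 0.850% (0.716–1.00) of kept barcodes in Lrrc25-/- and 1.08% (0.933–1.25) in WT, a ratio of 0.786 (0.627–0.983). In B16F10 they were 0.407% (0.302–0.536) in Lrrc25-/- and 0.480% (0.353–0.637) in WT, a ratio of 0.848 (0.558–1.29). The MC38 ratio combined subsets that went opposite ways by value: Col1a1-zero cells had a ratio of 0.685 (0.527–0.888), and Col1a1-high cells one of 1.83 (0.975–3.53). The second interval includes no change. Of the MC38 members, 21.1% in Lrrc25-/- and 9.09% in WT were Col1a1-high, a ratio of 2.32 (1.24–4.49). Among barcodes with no Ptprc UMI the ratio was 0.998 (0.797–1.25) in MC38 and 1.02 (0.670–1.55) in B16F10. The mix of bead-isolated and unsorted cells bears on shares of all barcodes, and its part was not tested. Before the exclusions, 231 Lrrc25-/- and 238 WT cells of MC38 and 69 Lrrc25-/- and 55 WT cells of B16F10 passed both the collagen and the Dcn, Lum and Pdgfra thresholds. A Ptprc UMI was present in 77 Lrrc25-/- and 48 WT cells of these in MC38 and in 11 Lrrc25-/- and 5 WT cells in B16F10. Whether mice within a pool differ as much cannot be seen from pools.

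The next comparison asked how Col1a1-high cells differ between the tumor models. A gene was called where both MC38 pools were at least 1.5-fold above, or both at least 1.5-fold below, both B16F10 pools, after adding 1 CPM. Of the 3682 genes with enough counts, 45.7% were called, 33.4% higher and 12.3% lower in MC38, and the median log2 difference was 0.36. In macrophages of the same libraries the same rule called 54.9%, 40.1% higher and 14.8% lower. Counts below are read against these shares.

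Glycolytic enzymes were lower in Col1a1-high cells of MC38 than of B16F10. Of 18 measured glycolysis and hypoxia genes, 11 were lower and 1 higher, with a median log2 difference of −1.33. Gapdh was at 729 CPM in Lrrc25-/- and 799 CPM in WT MC38, against 3223 CPM in Lrrc25-/- and 4675 CPM in WT B16F10. Ldha, which makes lactate, was at 308 CPM in Lrrc25-/- and 430 CPM in WT MC38 and at 1529 CPM in Lrrc25-/- and 1952 CPM in WT B16F10, and the lactate exporter Slc16a3 at 57.8 CPM in Lrrc25-/- and 60.6 CPM in WT MC38 and at 230 CPM in Lrrc25-/- and 300 CPM in WT B16F10. For these 3 genes the pools of the models did not overlap. Ndrg1, a stress-induced gene, was the 1 that went the other way, at 572 CPM in Lrrc25-/- and 441 CPM in WT MC38 and at 162 CPM in Lrrc25-/- and 272 CPM in WT B16F10. The hexokinase gene Hk2 (729 CPM in Lrrc25-/- and 408 CPM in WT MC38, 441 CPM in Lrrc25-/- and 310 CPM in WT B16F10) was not called. In macrophages 2 of 19 of these genes were lower and 3 higher in MC38, with Gapdh at 1840 CPM in Lrrc25-/- and 1675 CPM in WT MC38 and at 2887 CPM in Lrrc25-/- and 3453 CPM in WT B16F10.

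Interferon-γ-induced genes were higher in MC38, in 13 of 16 measured genes with none lower and a median log2 difference of 2.79. Gbp2, a GTPase that attacks vacuoles of pathogens, was at 421 CPM in Lrrc25-/- and 628 CPM in WT MC38, against 50.7 CPM in Lrrc25-/- and 6.04 CPM in WT B16F10. Irgm1, another interferon-induced GTPase, was at 135 CPM in Lrrc25-/- and 116 CPM in WT MC38 and at 5.48 CPM in Lrrc25-/- and 10.1 CPM in WT B16F10. Of 10 class I antigen presentation genes 7 were higher, among them H2-K1 (1414 CPM in Lrrc25-/- and 2126 CPM in WT MC38, 735 CPM in Lrrc25-/- and 551 CPM in WT B16F10) and B2m (3242 CPM in Lrrc25-/- and 4268 CPM in WT MC38, 2051 CPM in Lrrc25-/- and 1387 CPM in WT B16F10). Macrophages moved the same way, with 12 of 18 interferon-γ genes higher and 1 lower, and Gbp2 at 324 CPM in Lrrc25-/- and 256 CPM in WT MC38 and at 40.4 CPM in Lrrc25-/- and 29.3 CPM in WT B16F10. Cxcl9, the T cell chemokine, was at 1353 CPM in Lrrc25-/- and 2969 CPM in WT MC38 and at 153 CPM in Lrrc25-/- and 20.1 CPM in WT B16F10, and 1 cell held 64.1% of its UMIs in Lrrc25-/- MC38.

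**Figure D3:**
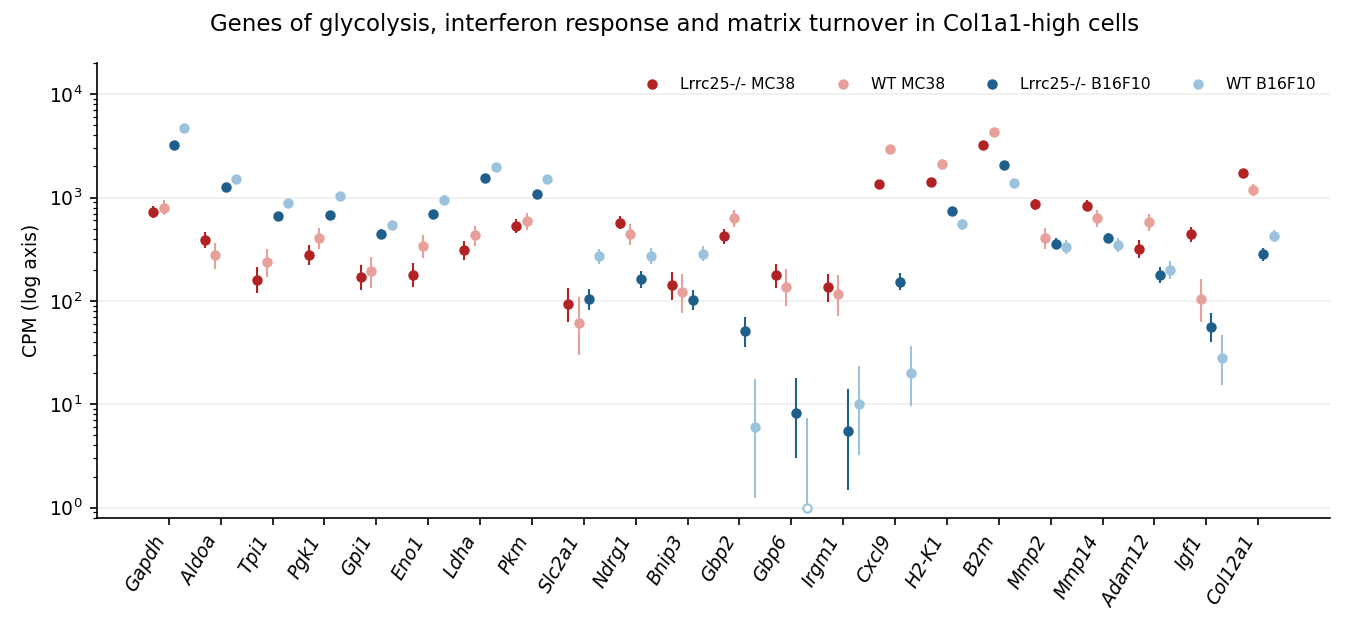
CPM (log axis) of 22 genes in Col1a1-high cells, 1 point per pool with its exact 95% Poisson interval for counting error; the pools stand in the order of the legend and an open circle at 1 marks a pool with 0 UMIs. Gapdh and Ldha are lower in both MC38 pools (308–799 CPM) than in both B16F10 pools (1529–4675 CPM), and Gbp2 and Irgm1 are higher in both MC38 pools.

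The promoters of Gbp2 and Irgm1 are shown because these genes differed both between the tumor models and between the genotypes in Col1a1-zero cells. Capitals mark the core of the interferon-stimulated response element (GAAANNGAAA, or TTTCNNTTTC where it lies on the other strand). The windows run from 250 bases before to 50 after the RefSeq start on GRCm38.p6, at chr3:142620413-142620712 (+) for Gbp2 and chr11:48871371-48871670 (−) for Irgm1.
Gbp2: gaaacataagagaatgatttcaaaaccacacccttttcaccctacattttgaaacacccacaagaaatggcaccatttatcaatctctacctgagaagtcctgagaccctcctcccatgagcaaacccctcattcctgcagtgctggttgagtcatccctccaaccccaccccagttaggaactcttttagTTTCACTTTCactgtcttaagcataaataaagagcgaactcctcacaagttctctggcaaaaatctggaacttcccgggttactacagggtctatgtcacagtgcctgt
Irgm1: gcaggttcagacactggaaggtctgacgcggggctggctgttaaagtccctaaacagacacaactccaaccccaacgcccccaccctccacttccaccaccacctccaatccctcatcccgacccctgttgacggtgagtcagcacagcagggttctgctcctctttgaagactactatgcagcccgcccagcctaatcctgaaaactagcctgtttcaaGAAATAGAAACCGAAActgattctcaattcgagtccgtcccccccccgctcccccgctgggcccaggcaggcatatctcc
Gbp2 held 1 match, on the opposite strand from −59 to −50. Irgm1 held 2 that overlap, from −30 to −21 and from −24 to −15. Of the 24 interferon-γ genes listed, 18 had an available promoter and 11 of these held the core, against 3.44% of 32851 promoters. The sequence TTCNNNGAA of the interferon-γ-activated site was held by 8, against 8.30%. The list was made of genes known to be induced by interferon, so these shares describe the list and not the cells.

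Matrix genes changed in both directions between the models. Among 21 genes of matrix degradation and its inhibitors, 11 were higher and 1 lower in MC38. The protease Mmp14 was at 835 CPM in Lrrc25-/- and 633 CPM in WT MC38 and at 407 CPM in Lrrc25-/- and 346 CPM in WT B16F10, and the versican protease Adamts1 at 501 CPM in Lrrc25-/- and 699 CPM in WT MC38 and at 126 CPM in Lrrc25-/- and 115 CPM in WT B16F10. The 1 lower gene was Timp1, an inhibitor of metalloproteinases, at 1057 CPM in Lrrc25-/- and 2247 CPM in WT MC38, against 7577 CPM in Lrrc25-/- and 7108 CPM in WT B16F10. Its relative Timp3 was higher, at 755 CPM in Lrrc25-/- and 1162 CPM in WT MC38 and at 208 CPM in Lrrc25-/- and 163 CPM in WT B16F10. Of 19 collagen-processing genes 6 were lower and 2 higher: Pcolce, which helps to trim procollagen, was at 392 CPM in Lrrc25-/- and 369 CPM in WT MC38 and at 1213 CPM in Lrrc25-/- and 1045 CPM in WT B16F10, while the cross-linking enzyme Loxl2 was at 620 CPM in Lrrc25-/- and 688 CPM in WT MC38 and at 233 CPM in Lrrc25-/- and 223 CPM in WT B16F10.

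Proteoglycans and glycoproteins of the matrix were higher in MC38 in 10 of 32 measured cases and lower in 4, close to the shares of 33.4% and 12.3% over all genes. Among the higher ones, periostin (Postn) was at 2474 CPM in Lrrc25-/- and 2925 CPM in WT MC38 and at 883 CPM in Lrrc25-/- and 676 CPM in WT B16F10, tenascin C (Tnc) at 2609 CPM in Lrrc25-/- and 5133 CPM in WT MC38 and at 887 CPM in Lrrc25-/- and 877 CPM in WT B16F10, and osteopontin (Spp1) at 3206 CPM in Lrrc25-/- and 3360 CPM in WT MC38 and at 498 CPM in Lrrc25-/- and 867 CPM in WT B16F10. Of 11 other collagens 2 were higher and none lower, among them Col12a1, which decorates fibrils, at 1732 CPM in Lrrc25-/- and 1184 CPM in WT MC38 and at 282 CPM in Lrrc25-/- and 429 CPM in WT B16F10. Versican (Vcan) was at 582 CPM in Lrrc25-/- and 507 CPM in WT MC38 and at 118 CPM in Lrrc25-/- and 103 CPM in WT B16F10. The insulin-like growth factor binding proteins differed in direction, with Igfbp4 higher (1899 CPM in Lrrc25-/- and 925 CPM in WT MC38, 212 CPM in Lrrc25-/- and 169 CPM in WT B16F10) and Igfbp7 lower (784 CPM in Lrrc25-/- and 760 CPM in WT MC38, 2122 CPM in Lrrc25-/- and 3172 CPM in WT B16F10). The fibrillar collagens outside the rule gave 1 call among 3 measured, Col5a2, which was higher. The 18 universal and adventitial genes gave 1 higher and 1 lower, with a median log2 difference of 0.00.

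Transcription factors were higher in 7 of 13 cases and lower in none. Zeb1, a factor of mesenchymal cells, was at 398 CPM in Lrrc25-/- and 358 CPM in WT MC38, against 58.9 CPM in Lrrc25-/- and 38.2 CPM in WT B16F10. Klf4 was at 912 CPM in Lrrc25-/- and 793 CPM in WT MC38 and at 216 CPM in Lrrc25-/- and 103 CPM in WT B16F10. Ndufa4l2, a mitochondrial protein induced by low oxygen, was lower, at 70.7 CPM in Lrrc25-/- and 132 CPM in WT MC38 and at 479 CPM in Lrrc25-/- and 1137 CPM in WT B16F10. Mitochondrial reads moved with the model: their median share was 2.08% in Lrrc25-/- and 2.18% in WT Col1a1-high cells of MC38, against 0.321% in Lrrc25-/- and 0.135% in WT Col1a1-high cells of B16F10. Over all kept barcodes it was 2.34% in Lrrc25-/- and 2.49% in WT MC38, against 0.806% in Lrrc25-/- and 0.317% in WT B16F10. The part of this difference in the results above was not tested.

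The genotypes were compared within each model, in Col1a1-high cells first. A gene was called where the pools differed by at least 1.5-fold after adding 1 CPM, with at least 20 CPM in 1 pool and 50 UMIs in both together. This is a rule of size for 2 pools, with no test. In MC38, 28.6% of 1621 measured genes were called, 16.8% higher and 11.7% lower in Lrrc25-/-. In B16F10, 23.4% of 2368 were called, 17.1% higher and 6.38% lower. Counts in Col1a1-high cells below are read against these shares. In both models 39 genes were higher and 14 lower, and 29 and 20 went opposite ways, of 1290 measured in both. Calls in opposite directions were thus about as frequent as calls in the same direction. Passing in both models is given below as a description, not as agreement between the models. In macrophages the rule called 3.08% of genes in MC38, 0.722% higher and 2.35% lower, and 6.13% in B16F10, 4.07% higher and 2.06% lower, in pools of more cells. The MC38 cells differed in Sox9 between genotypes: 2 of 30 Lrrc25-/- and 6 of 17 WT Col1a1-high cells held at least 3 Sox9 UMIs. The WT cells with 20 and 21 Sox9 UMIs gave 19246 and 24252 of the 181564 UMIs of their pool. The part of these cells in the MC38 values was not tested.

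Universal and adventitial fibroblast genes were higher in Lrrc25-/- cells of both models more often than lower. Of 14 measured genes in MC38 8 were higher and 1 lower in Lrrc25-/- Col1a1-high cells, with a median log2 fold of 1.52, against −0.00 for all genes. In B16F10 8 of 16 were higher, none was lower, and the median was 0.52, against 0.15 for all genes. Pi16 was at 871 CPM in Lrrc25-/- and 88.1 CPM in WT MC38, a log2 fold of 3.29, and at 197 CPM in Lrrc25-/- and 94.6 CPM in WT B16F10, a log2 fold of 1.05. Clec3b, which binds plasminogen, was at 312 CPM in Lrrc25-/- and 22.03 CPM in WT MC38 and at 174 CPM in Lrrc25-/- and 72.5 CPM in WT B16F10. Dpt was at 524 CPM in Lrrc25-/- and 171 CPM in WT MC38 and at 237 CPM in Lrrc25-/- and 147 CPM in WT B16F10. All 3 were higher in both models. Without the cell richest in the gene in each pool, the log2 fold of Pi16 was 4.14 in MC38 and 1.24 in B16F10.

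Other members of that list were called in both models or in 1 of them. The actin-severing gelsolin (Gsn) was higher in both, at 308 CPM in Lrrc25-/- and 105 CPM in WT MC38 and at 850 CPM in Lrrc25-/- and 268 CPM in WT B16F10, as was the lipid carrier Apod (357 CPM in Lrrc25-/- and 60.6 CPM in WT MC38, 266 CPM in Lrrc25-/- and 169 CPM in WT B16F10). The antioxidant enzyme Gpx3 was higher in MC38, at 2204 CPM in Lrrc25-/- and 545 CPM in WT, with 1720 CPM in Lrrc25-/- and 1280 CPM in WT B16F10, not called. The surface protein Ly6c1 was higher in B16F10, at 824 CPM in Lrrc25-/- and 384 CPM in WT, with 453 CPM in Lrrc25-/- and 330 CPM in WT MC38, not called. Col15a1, a basement membrane collagen, was lower in MC38, at 86.7 CPM in Lrrc25-/- and 297 CPM in WT, and was not called in B16F10 at 87.6 CPM in Lrrc25-/- and 119 CPM in WT. Mfap5, at 1375 CPM in Lrrc25-/- and 1531 CPM in WT MC38 and at 1640 CPM in Lrrc25-/- and 1801 CPM in WT B16F10, was called in neither. No difference between the models was tested for these genes.

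**Figure D4:**
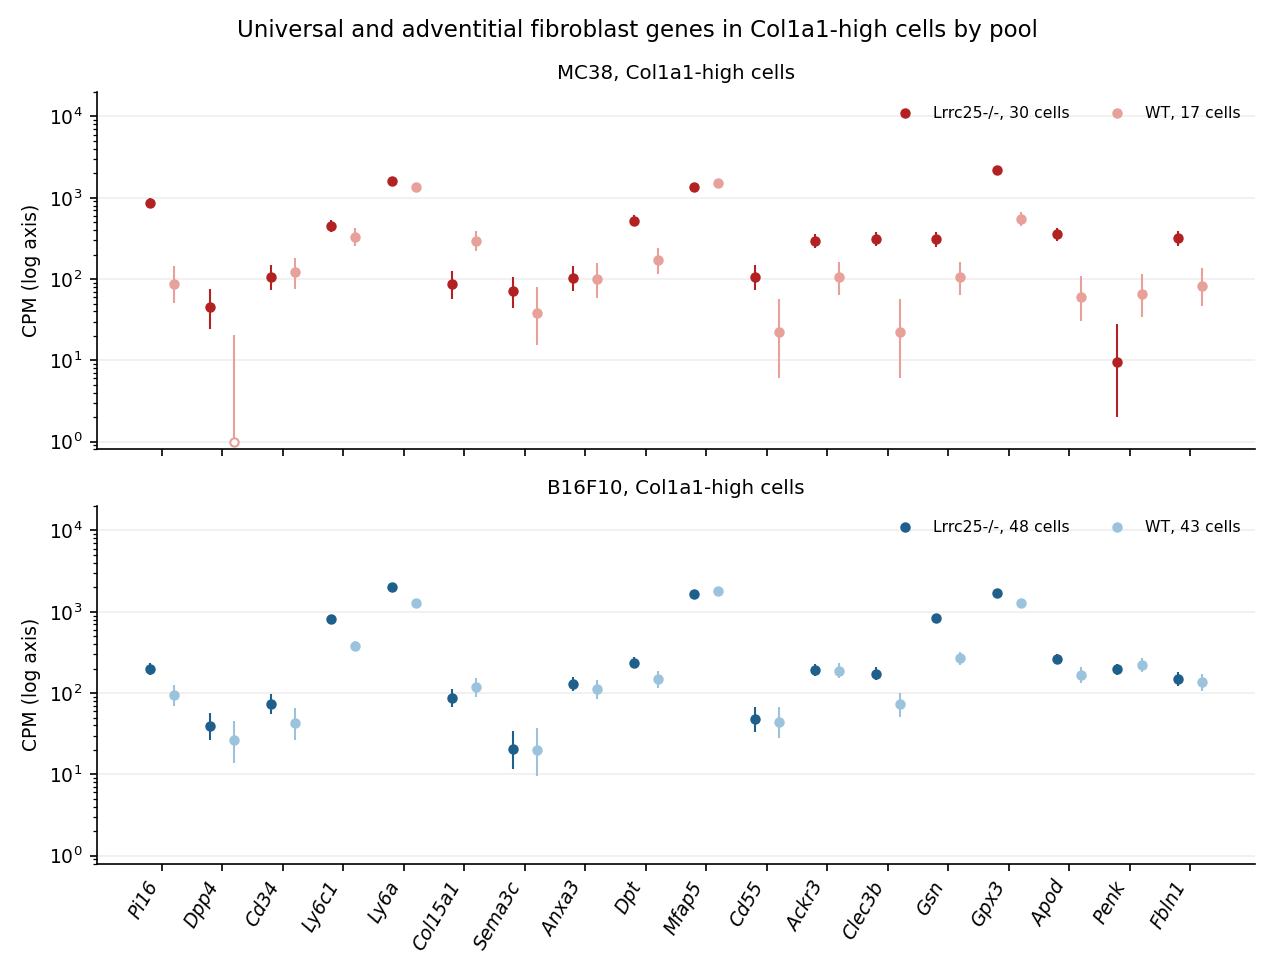
CPM (log axis) of the 18 universal and adventitial genes in Col1a1-high cells, MC38 above and B16F10 below, with Lrrc25-/- left of WT for each gene; bars are exact 95% Poisson intervals for counting error and an open circle at 1 marks 0 UMIs. Pi16, Clec3b, Dpt, Gsn and Apod are higher in Lrrc25-/- in both models, and Mfap5 lies within 1.5-fold in both.

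Of 5 measured Wnt and BMP genes in MC38 2 were higher and 1 lower in Lrrc25-/- cells, and in B16F10 1 of 5 was higher. Over all genes 16.8% were higher in MC38 and 17.1% in B16F10, so the B16F10 count is near that share and both rest on few genes. The higher ones encode secreted inhibitors of Wnt signalling. Sfrp1 was at 990 CPM in Lrrc25-/- and 143 CPM in WT MC38, with 47.9 CPM in Lrrc25-/- and 14.1 CPM in WT B16F10, where it had too few UMIs for the rule. Sfrp2 was at 652 CPM in Lrrc25-/- and 160 CPM in WT MC38 and at 327 CPM in Lrrc25-/- and 163 CPM in WT B16F10, and was higher in both. Grem1, a BMP antagonist, had 46 UMIs (148 CPM) from 5 of 30 Lrrc25-/- cells and 1 UMI (5.51 CPM) in WT MC38, too few for the rule.

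Matrix proteases were uneven. Mmp3 (stromelysin) was at 993 CPM in Lrrc25-/- and 38.6 CPM in WT MC38, found in 24 of 30 Lrrc25-/- and 3 of 17 WT cells, while in B16F10 it was at 292 CPM in Lrrc25-/- and 266 CPM in WT and not called. Mmp2, a gelatinase, was at 861 CPM in Lrrc25-/- and 408 CPM in WT MC38 and at 357 CPM in Lrrc25-/- and 330 CPM in WT B16F10, called in MC38 alone. Adamts5 was higher in both, at 459 CPM in Lrrc25-/- and 187 CPM in WT MC38 and at 137 CPM in Lrrc25-/- and 68.4 CPM in WT B16F10. Timp1 was lower in Lrrc25-/- MC38, at 1057 CPM in Lrrc25-/- and 2247 CPM in WT, and not called in B16F10. Over the list, 6 of 16 measured genes were higher and 4 lower in MC38, and 4 of 17 higher and 1 lower in B16F10. Over all genes 16.8% were higher and 11.7% lower in MC38, and 17.1% and 6.38% in B16F10, so the B16F10 counts are near those shares. Of the fibrillar collagens outside the rule, none of 3 was called in either model. Col1a1, Col1a2 and Col3a1 chose the cells and were left out of this count, and their levels are given above.

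Proteoglycans and glycoproteins were higher in 11 of 28 measured cases and lower in 1 in MC38, and higher in 3 of 31 and lower in 3 in B16F10, where the count of higher genes is below the share over all genes. A few genes of this and other lists, or of none, passed the rule in both models and are named for that, as a description. Col14a1, a fibril-associated collagen, was at 1022 CPM in Lrrc25-/- and 231 CPM in WT MC38, found in 27 of 30 Lrrc25-/- and 13 of 17 WT cells, and at 167 CPM in Lrrc25-/- and 60.4 CPM in WT B16F10, found in 33 of 48 Lrrc25-/- and 18 of 43 WT cells. The small proteoglycan Ogn was at 305 CPM in Lrrc25-/- and 71.6 CPM in WT MC38 and at 107 CPM in Lrrc25-/- and 42.3 CPM in WT B16F10, and lubricin (Prg4) at 328 CPM in Lrrc25-/- and 132 CPM in WT MC38 and at 501 CPM in Lrrc25-/- and 193 CPM in WT B16F10. Ccn2 (connective tissue growth factor) was at 405 CPM in Lrrc25-/- and 33.05 CPM in WT MC38 and at 156 CPM in Lrrc25-/- and 48.3 CPM in WT B16F10. The imprinted transcript H19 was at 241 CPM in Lrrc25-/- and 49.6 CPM in WT MC38 and at 83.5 CPM in Lrrc25-/- and 22.1 CPM in WT B16F10.

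Complement genes were higher in 4 of 7 measured cases in MC38 and in 2 of 8 in B16F10, with none lower, beside 16.8% and 17.1% of all genes called higher, so that the B16F10 count is near the share over all genes. C3, the central component, was at 1089 CPM in Lrrc25-/- and 573 CPM in WT MC38 and at 1084 CPM in Lrrc25-/- and 441 CPM in WT B16F10. C4b was at 479 CPM in Lrrc25-/- and 160 CPM in WT MC38 and at 544 CPM in Lrrc25-/- and 219 CPM in WT B16F10. These were the 2 genes called in both models.

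Among inflammatory mediators, 6 of 21 measured genes were higher and none lower in MC38, and 11 of 23 were higher and 4 lower in B16F10. The shares over all genes were 16.8% higher and 11.7% lower in MC38, and 17.1% and 6.38% in B16F10. Il6 was at 408 CPM in Lrrc25-/- and 391 CPM in WT MC38, and at 496 CPM in Lrrc25-/- and 117 CPM in WT B16F10, found there in 28 of 48 Lrrc25-/- and 19 of 43 WT cells. The monocyte chemokine Ccl2 was at 4434 CPM in Lrrc25-/- and 4505 CPM in WT MC38 and at 6423 CPM in Lrrc25-/- and 3325 CPM in WT B16F10. The neutrophil chemokine Cxcl1 was at 4829 CPM in Lrrc25-/- and 4516 CPM in WT MC38 and at 4008 CPM in Lrrc25-/- and 2649 CPM in WT B16F10. All 3 were called in B16F10 and not in MC38, and each was lowest in WT B16F10. Cxcl14 was higher in both models, at 929 CPM in Lrrc25-/- and 281 CPM in WT MC38 and at 308 CPM in Lrrc25-/- and 177 CPM in WT B16F10, but 1 cell held 68.6% of its UMIs in WT MC38. Cxcl12, which retains leukocytes, was higher in MC38 (231 CPM in Lrrc25-/- and 132 CPM in WT) and lower in B16F10 (134 CPM in Lrrc25-/- and 231 CPM in WT).

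The acute-phase gene Saa3 went opposite ways. It was at 1796 CPM in Lrrc25-/- and 424 CPM in WT MC38, and at 598 CPM in Lrrc25-/- and 7515 CPM in WT B16F10. A single cell held 57.1% of these UMIs in Lrrc25-/- and 46.8% in WT MC38, and 42.1% in Lrrc25-/- and 37.8% in WT B16F10. Saa3 was found in 12 of 30 Lrrc25-/- and 5 of 17 WT cells of MC38 and in 14 of 48 Lrrc25-/- and 16 of 43 WT cells of B16F10, so the levels rest on few cells. Hp (haptoglobin) was likewise higher in MC38 (344 CPM in Lrrc25-/- and 127 CPM in WT) and lower in B16F10 (129 CPM in Lrrc25-/- and 244 CPM in WT).

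Growth factors and their receptors were higher in 4 of 8 measured cases in MC38 and in 2 of 12 in B16F10, with none lower, and the B16F10 count is near the share over all genes. Igf1 was at 443 CPM in Lrrc25-/- and 105 CPM in WT MC38 and at 56.1 CPM in Lrrc25-/- and 28.2 CPM in WT B16F10. Gas6, a ligand of the TAM receptors that clear dying cells, was at 716 CPM in Lrrc25-/- and 99.1 CPM in WT MC38, found in 23 of 30 Lrrc25-/- and 6 of 17 WT cells, and at 111 CPM in Lrrc25-/- and 84.5 CPM in WT B16F10, where it was not called.

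Lower genes in Lrrc25-/- Col1a1-high cells numbered 190 in MC38 and 151 in B16F10, beside 273 and 404 higher ones. Nav3, a neuron navigator protein, was lower in both models, at 260 CPM in Lrrc25-/- and 677 CPM in WT MC38 and at 28.8 CPM in Lrrc25-/- and 84.5 CPM in WT B16F10. Plcb1, a phospholipase, was at 8.22 CPM in Lrrc25-/- and 1288 CPM in WT B16F10, found in 5 of 48 Lrrc25-/- and 22 of 43 WT cells. Macrophages of B16F10 had the same pattern, with 13.6 CPM of Plcb1 in Lrrc25-/- and 762 CPM in WT, so in B16F10 the gene separated the libraries in another cell class too. In MC38 it was at 161 CPM in Lrrc25-/- and 49.6 CPM in WT. Ctla2a was at 38.6 CPM in Lrrc25-/- and 11.02 CPM in WT MC38 and, lower by the rule, at 42.4 CPM in Lrrc25-/- and 479 CPM in WT B16F10. Of 18 glycolysis and hypoxia genes, 5 were lower and none higher in B16F10, beside 6.38% of all genes lower and 17.1% higher.

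In the Col1a1-zero cells of MC38 interferon-γ-induced and antigen presentation genes were higher in Lrrc25-/-, and some cell cycle genes lower. Of 6602 measured genes 7.8% were called, 2.15% higher and 5.65% lower in Lrrc25-/-, with a median log2 fold of −0.09. Interferon-γ-induced genes were higher in 10 of 18 cases and lower in none, with a median of 0.63. Gbp2 was at 468 CPM in Lrrc25-/- and 291 CPM in WT, Irgm1 at 142 CPM in Lrrc25-/- and 83.9 CPM in WT, the immunoproteasome subunit Psmb9 at 219 CPM in Lrrc25-/- and 116 CPM in WT, and the peptide transporter Tap1 at 127 CPM in Lrrc25-/- and 69.1 CPM in WT. Irf1, at 437 CPM in Lrrc25-/- and 352 CPM in WT, was below the rule. Of 9 measured type I interferon genes 2 were higher and 1 lower, the lower one being Ifi44 at 10.8 CPM in Lrrc25-/- and 30.2 CPM in WT. The 300-base windows of Gbp2 and Irgm1 are those printed above.

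Antigen presentation genes of both classes were among those called. Of 9 class I genes 4 were higher, with H2-K1 at 2545 CPM in Lrrc25-/- and 1671 CPM in WT. Of 6 class II genes 5 were higher, with H2-Aa at 145 CPM in Lrrc25-/- and 55.1 CPM in WT, H2-Eb1 at 124 CPM in Lrrc25-/- and 46.7 CPM in WT and their chaperone Cd74 at 290 CPM in Lrrc25-/- and 134 CPM in WT. Macrophages of MC38 had 3229 CPM of H2-Aa in Lrrc25-/- and 2055 CPM in WT, and 9521 CPM of Cd74 in Lrrc25-/- and 6331 CPM in WT, so these class II genes were also higher by value in macrophages, at far higher levels. The 8 macrophage markers moved with them within the Col1a1-zero cells, at a sum of 149.6 CPM in Lrrc25-/- and 86.7 CPM in WT with none at 0, and their part in the class II values was not tested. Sox9 cells outside the rule had 136 CPM of H2-Aa in Lrrc25-/- and 62 CPM in WT and 420 CPM of Gbp2 in Lrrc25-/- and 276 CPM in WT, close to the Col1a1-zero cells.

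The Col1a1-high cells of the same tumors had other counts. Of 13 interferon-γ genes 1 was higher and 4 lower in Lrrc25-/- MC38, and of 9 class I genes none was higher and 4 lower. Gbp2 was at 421 CPM in Lrrc25-/- and 628 CPM in WT, and H2-K1 at 1414 CPM in Lrrc25-/- and 2126 CPM in WT. The difference between the subsets was not tested.

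Cell cycle genes were lower in Lrrc25-/- Col1a1-zero cells, in 4 of 20 measured cases with none higher and a median of −0.37. Mki67, a marker of cycling cells, was at 187 CPM in Lrrc25-/- and 312 CPM in WT, and the replication clamp Pcna at 169 CPM in Lrrc25-/- and 258 CPM in WT. The differentiation gene Slurp1, a secreted protein of squamous epithelium, was higher, at 433 CPM in Lrrc25-/- and 155 CPM in WT.

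**Figure D5:**
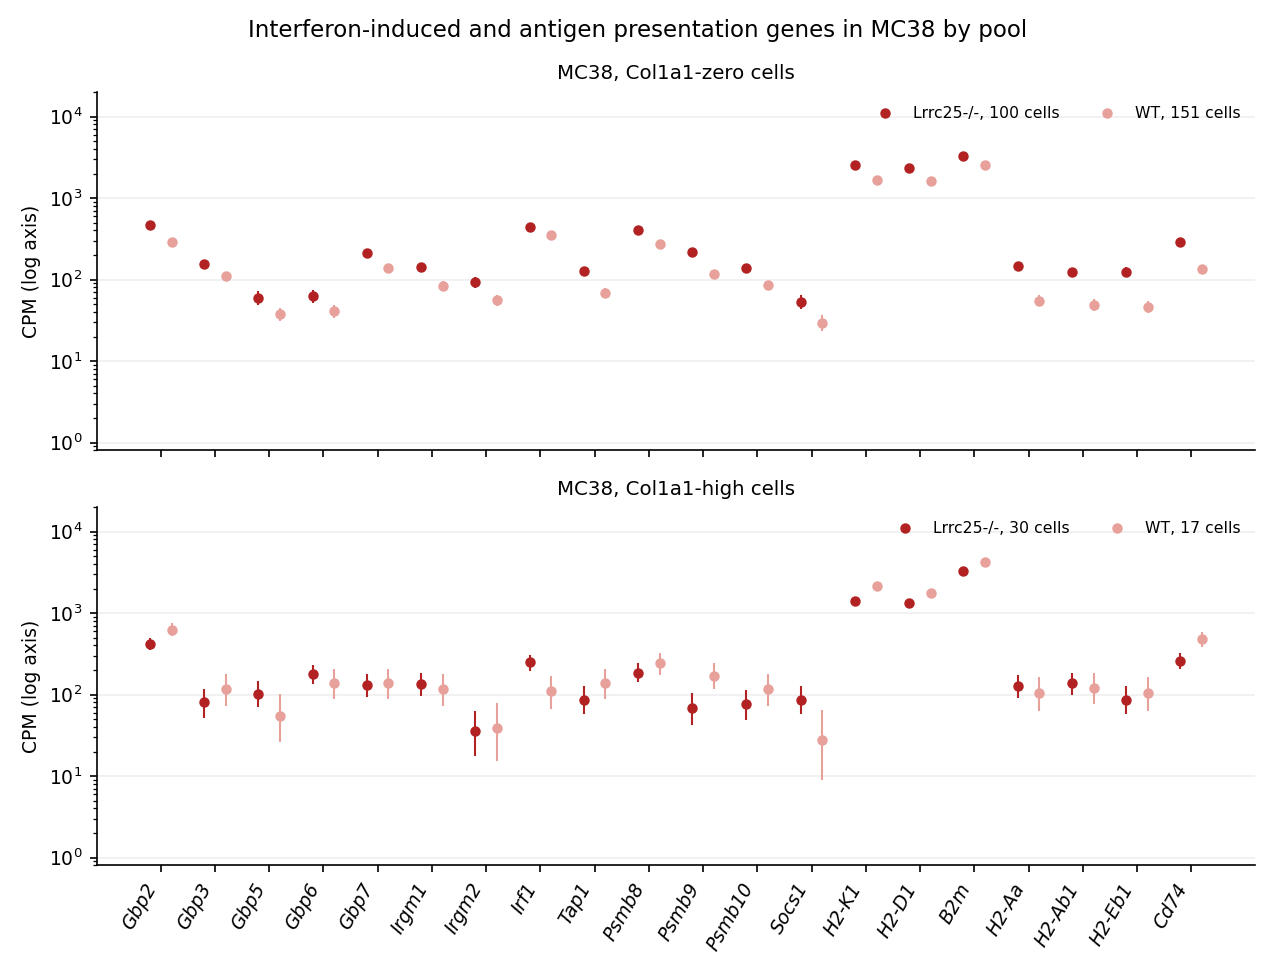
CPM (log axis) of 20 chosen genes of the interferon-γ and antigen presentation lists in MC38, Col1a1-zero cells above and Col1a1-high cells below, with Lrrc25-/- left of WT for each gene; bars are exact 95% Poisson intervals for counting error. In Col1a1-zero cells all 20 genes are higher in Lrrc25-/- by value, and in Col1a1-high cells Gbp2, H2-K1 and B2m are lower by value.

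Over all members the same rule of size called 9.74% of 6695 genes in MC38 (4.72% higher and 5.02% lower in Lrrc25-/-) and 22.8% of 2429 in B16F10 (16.8% higher and 6.05% lower, 408 and 147 genes, or 319 and 198 with TMM scaling). In both models 48 genes were higher and 1 lower, of 2285 measured in both, while 31 were higher in MC38 and lower in B16F10 and 6 went the other way. A model fitted over all 4 pools of members (edgeR quasi-likelihood, tumor model and genotype as terms) tests the genotype with 1 residual degree of freedom, and its prior degrees of freedom were infinite, so all genes shared one estimate of the spread. It called 61 of 9825 genes (0.621%) at a Benjamini-Hochberg adjusted p of 0.05, 0.57% higher and 0.0509% lower in Lrrc25-/-. Sfrp1 had a log2 fold of 3.12 ± 0.37 (SE, edgeR adjusted p = 5.1e-13), Clec3b one of 2.33 ± 0.35 (1.2e-07), Pi16 one of 2.26 ± 0.35 (1.6e-07) and Mmp3 one of 2.24 ± 0.39 (1.2e-05). Of the universal and adventitial list 6 of 18 rose, of the Wnt and BMP list 4 of 12, of the inflammatory list 4 of 26 and of the complement list 2 of 10, with none lower in these 4 lists. Plcb1 fell by 2.59 ± 0.53 (edgeR adjusted p = 5.5e-04), but its value was 1.53 in the fits without the Lrrc25-/- or the WT B16F10 library. The share of Col1a1-high cells moved with the genotype in MC38: these cells gave 311253 of 2526889 member UMIs in Lrrc25-/- and 181564 of 3350416 in WT. Fitted on Col1a1-high cells alone, edgeR called 0 of 4870 genes, with 179 at an unadjusted p under 0.05, and DESeq2 on all members called 0, with 81 at an unadjusted p under 0.05.

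The same fit for the tumor model called 51.3% of genes over all members, 26.9% higher and 24.4% lower in MC38. Col1a1-zero cells were members in MC38 alone, and the part of their share in this count was not tested. Tafa1 was at 272 CPM in Lrrc25-/- and 277 CPM in WT members of MC38 and at 0 in both B16F10 pools, and Krt14, a basal keratin, at 260 CPM in Lrrc25-/- and 212 CPM in WT and at 0. In Col1a1-high cells Tafa1 was at 6.43 CPM in Lrrc25-/- and 38.6 CPM in WT MC38. On Col1a1-high cells alone 35.6% of 4870 genes were called, 17.8% in each direction, and DESeq2 on all members called 12.7%, 5.66% higher and 7.04% lower. Whether the model difference was another in members than in macrophages was tested as an interaction, with the library as a block. A positive term means that MC38 minus B16F10 was larger in members than in macrophages, whatever its sign in either. That called 22.9% of 14981 genes, with 1715 positive and 1712 negative terms (1293 and 2011 with DESeq2's size factors). On Col1a1-high cells it called 5.11%, 1.25% positive and 3.87% negative, and DESeq2 called 10.3% over all members, 3.23% positive and 7.04% negative. The term was negative for 15 of 21 glycolysis and hypoxia genes over all members and for 16 of 21 over Col1a1-high cells, with none positive in either. Of the interferon-γ genes it was positive for 9 and negative for 2 of 22 over all members, and positive for 6 and negative for 1 of 20 over Col1a1-high cells.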

How the data were processed

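The files the authors deposited hold whole UMI counts per gene and cell barcode. Reads were placed on mm10, as the submitters' processing notes give it; no aligner or counter is given in the sources used here. Free RNA was not subtracted. Counts were summed over the cells of a class in each pool and divided by their total (CPM), not by gene length. Cells were handled in Python 3.11.15 with scanpy 1.11.5, numpy 2.4.6 and scipy 1.17.1, and figures drawn with matplotlib 3.10.9. Tests used edgeR 4.0.16 in R 4.3.3 on the summed counts (TMM, filterByExpr, Benjamini-Hochberg over all genes tested), with DESeq2 1.42.0 as an alternative, and were checked on simulated data. Intervals are exact Clopper-Pearson or Poisson intervals. Scrublet's automatic thresholds marked 0% to 2.07% of barcodes and did not work in 3 libraries. Doublets were therefore kept, and taking out 0.5% of barcodes per 1000 by score is an alternative. Members and gene lists were chosen with earlier results of these data known. Genes were named from 41 lists, or as the most changed genes of a comparison. Other choices of cells, scaling, filter, fold and pseudocount were tried. Some genes counted in the lists are not reported here by name.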

Additional observations from a re-analysis of the deposited data

Results flagged for a closer look

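A handful of genes of the lists went opposite ways in Lrrc25-/- over WT in the 2 tumor models when all members were summed. With 1 pool per genotype and model this difference was not tested. In MC38 these values move with the share of Col1a1-high cells, so the levels in Col1a1-high cells are given beside them, and the part of that share was not tested. Saa3 had a log2 fold of 3.16 in MC38 and −3.72 in B16F10, and its levels in Col1a1-high cells, given above, go the same ways. Hp had one of 2.4 in MC38 and −0.96 in B16F10. Cxcl12 had one of 1.66 in MC38 and −0.85 in B16F10, and both genes keep these directions in Col1a1-high cells.

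Eln, which encodes elastin, had a log2 fold of 3.33 in MC38 and −0.67 in B16F10. In Col1a1-high cells it was at 292 CPM in Lrrc25-/- and 33.05 CPM in WT MC38, where 1 WT cell held it, and at 94.5 CPM in Lrrc25-/- and 147 CPM in WT B16F10, where 1 cell held 90.4% of the WT UMIs. Serpine2, a protease inhibitor, went the other way, with −0.97 in MC38 and 1.03 in B16F10. Its levels in Col1a1-high cells were 86.7 CPM in Lrrc25-/- and 397 CPM in WT MC38, and 64.4 CPM in Lrrc25-/- and 32.2 CPM in WT B16F10. The metallothionein Mt1 had 0.73 in MC38 and −0.65 in B16F10, with 3701 CPM in Lrrc25-/- and 1647 CPM in WT Col1a1-high cells of MC38 and 7045 CPM in Lrrc25-/- and 10789 CPM in WT Col1a1-high cells of B16F10.

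For 3 genes the MC38 side was not called in Col1a1-high cells. Col12a1 had 1.64 in MC38 and −0.64 in B16F10 over all members, with 1732 CPM in Lrrc25-/- and 1184 CPM in WT Col1a1-high cells of MC38. Lrrc15, a surface protein of myofibroblasts, had 1.22 in MC38 and −0.90 in B16F10, with 382 CPM in Lrrc25-/- and 319 CPM in WT Col1a1-high cells of MC38. Ndrg1 had 0.59 in MC38 and −0.60 in B16F10, with 572 CPM in Lrrc25-/- and 441 CPM in WT Col1a1-high cells of MC38.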

How the results depend on the processing

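No paired analysis was possible because the labels carry no replicate numbers and each group is 1 pool. The genotype count of 61 genes fell to 0 with Col1a1-high cells only (an alternative added after seeing the data), 0 with DESeq2, 0 without the tumor model as a term, 1 without the barcodes of highest doublet score, 1 with a stricter collagen rule and 29 with stricter exclusion of other cells; it was 60 and 52 under the scaling and filter alternatives. The tumor model count of 5036 became 1735 with Col1a1-high cells only, 2288 with DESeq2, 3328 with the stricter collagen rule and 2037 with stricter exclusion. The interaction count of 3427 became 729 with Col1a1-high cells only and 419 against endothelial cells, and 1831 to 2383 without 1 library. Leaving out a library left the other fits no residual degrees of freedom, so those are values with no test. By the rule of size, a fold of 2 left 119 higher and 38 lower genes in MC38 (316 and 336 before) and 101 and 27 in B16F10 (408 and 147 before). In MC38 the lower genes became 693 with stricter exclusion and 190 with Col1a1-high cells only. In B16F10 a minimum of 20 UMIs gave 991 higher and 432 lower, and stricter exclusion 122 higher. The ratio of member shares moved in MC38, where it was 0.786, to 1.83 (Col1a1-high only), 1.61 (stricter collagen rule), 2.0 (thinned to 2000 UMIs), 0.998 (barcodes without Ptprc) and 0.442 (stricter exclusion). In B16F10, where it was 0.848, it moved to 1.36 when thinned. In the genotype fit without 1 library Plcb1 ran between −7.41 and 1.53 and Ctla2a between −3.64 and 1.68, both reversed without either B16F10 library. Lcn2 reversed to 0.87 in B16F10 (stricter exclusion), and in MC38 Amy1 to 0.19 (Col1a1-high only) and Sgo2a to 0.49 (stricter collagen rule). The cause was not tested. Over single genes, 568 values kept their call, 162 lost it, 66 moved and 7 reversed. In Col1a1-high cells the edgeR fit centres the tumor model difference at a median log2 of 0.04 and CPM at 0.36. Glycolysis genes were lower and interferon-γ genes higher in MC38 on both scales. Depth limits the MC38 Col1a1-high cells most, with 17 WT cells and 181564 UMIs.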

Other observations

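Immediate early genes, which are transcribed within minutes of a stimulus, were higher in Lrrc25-/- Col1a1-high cells of MC38. Of 15 measured immediate early and stress genes 8 were higher and 1 lower, and in B16F10 5 of 18 were higher and 1 lower. Beside these, 16.8% of all genes were higher and 11.7% lower in MC38, and 17.1% and 6.38% in B16F10. Fos was at 912 CPM in Lrrc25-/- and 358 CPM in WT MC38 and at 231 CPM in Lrrc25-/- and 248 CPM in WT B16F10. Egr1 and Nr4a1 were higher in both models, Egr1 at 514 CPM in Lrrc25-/- and 270 CPM in WT MC38 and at 203 CPM in Lrrc25-/- and 125 CPM in WT B16F10, and Nr4a1 at 315 CPM in Lrrc25-/- and 93.6 CPM in WT MC38 and at 141 CPM in Lrrc25-/- and 92.6 CPM in WT B16F10. The heat shock gene Hspa1b was higher in B16F10, at 300 CPM in Lrrc25-/- and 103 CPM in WT, with 57.8 CPM in Lrrc25-/- and 66.1 CPM in WT MC38, and the chaperone Hsp90aa1 was the 1 lower gene in MC38, at 370 CPM in Lrrc25-/- and 1052 CPM in WT.

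Genes of lipid handling were lower in Lrrc25-/- Col1a1-high cells of B16F10 in 4 of 7 measured cases, with none higher, while in MC38 2 of 4 were higher and none lower. Over all genes 6.38% were lower in B16F10 and 16.8% higher in MC38, and the list counts rest on few genes. Fabp5, a fatty acid carrier, was lower, at 157 CPM in Lrrc25-/- and 873 CPM in WT B16F10, and higher by the rule, at 135 CPM in Lrrc25-/- and 82.6 CPM in WT MC38. Apoe, a lipoprotein, was likewise lower in B16F10 (114 CPM in Lrrc25-/- and 171 CPM in WT) and higher in MC38 (161 CPM in Lrrc25-/- and 66.1 CPM in WT). The retinol carrier Rbp4 was at 114 CPM in Lrrc25-/- and 260 CPM in WT B16F10. Of the contractile genes 2 of 10 were higher in MC38 and 1 of 10 lower in B16F10. These counts are near the shares over all genes, 16.8% higher in MC38 and 6.38% lower in B16F10. Acta2, called in neither, was at 649 CPM in Lrrc25-/- and 457 CPM in WT MC38 and at 775 CPM in Lrrc25-/- and 968 CPM in WT B16F10. Checkpoint and suppressive genes were mostly too low for the rule: Cd274 (PD-L1) had 16 UMIs in Lrrc25-/- and 10 in WT MC38 and 3 UMIs in each genotype of B16F10, and Ido1 had 0 UMIs in all 4 pools. Galectin 1 (Lgals1) was the abundant gene of that list, at 2538 CPM in Lrrc25-/- and 3002 CPM in WT MC38 and at 5831 CPM in Lrrc25-/- and 6291 CPM in WT B16F10, and was called in neither.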
